A study of Rattus norvegicus with 6 samples.

Results

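The 10 circadian clock genes Clock, Arntl, Per1, Per2, Per3, Cry1, Cry2, Dbp, Bhlhe40 and Nfil3 were followed in RNA sequencing of INS-1, an insulin-secreting line derived from a rat insulinoma. They were chosen by symbol from the deposited transcript table, and each matched 1 gene among the 21553 named genes. The counts of all rows of a gene were summed. Of the 6 libraries, 3 came from INS-MOCK cells, labelled wild type, and 3 from INS-SMA cells, labelled SMA overexpression, in which a lentivirus carried the gene for α-SMA (alpha smooth muscle actin). Passages 7 to 15 were used for both groups. The labels do not say whether INS-MOCK cells received a virus, which promoter drove α-SMA, whether INS-SMA is 1 clone, or when cells were harvested relative to feeding or a change of serum. The row of human ACTA2, the gene for α-SMA, had 135, 103 and 167 counts in INS-MOCK and 941093, 1141322 and 1139159 in INS-SMA.

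The mammalian clock is a feedback loop of transcription. CLOCK and BMAL1, the product of Arntl, bind E-box sequences and activate the Per and Cry genes, and the PER and CRY proteins then block CLOCK and BMAL1. Side loops run through the nuclear receptors REV-ERB (Nr1d1 and Nr1d2) and ROR, which act on Arntl, through DBP and NFIL3, which bind the same D-box sequence as activator and repressor, and through BHLHE40 (DEC1), which competes for E-boxes. Pancreatic beta cells have a clock of their own that is known to time insulin secretion, and cells in culture keep no common phase unless they are synchronised.

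Promoter windows are shown first because the named loops act through short motifs. RefSeq windows of GRCr8 from 250 bases before to 50 after a start site existed for 9 of the 10 genes, all but Cry1. Both strands were searched for the E-box CACGTG, the E′-box CACGTT, the D-box TTATGTAA and its palindromic form TTACGTAA, the ROR and REV-ERB element TAGGTCA, and the cyclic AMP element TGACGTCA. No match found in these genes shared bases with another. Below are the 250 bases before the start site, 5′ to 3′ on the gene's strand, for 3 genes of the set and for Ciart, a related gene described further on. Capitals mark the matches.
Arntl (chr1:176766078-176766327, plus strand): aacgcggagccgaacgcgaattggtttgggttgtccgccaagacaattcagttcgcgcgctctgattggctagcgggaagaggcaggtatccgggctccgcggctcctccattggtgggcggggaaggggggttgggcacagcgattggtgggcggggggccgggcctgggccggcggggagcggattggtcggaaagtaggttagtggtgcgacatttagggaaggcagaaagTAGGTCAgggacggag
Per2 (chr9:99496994-99497243, minus strand): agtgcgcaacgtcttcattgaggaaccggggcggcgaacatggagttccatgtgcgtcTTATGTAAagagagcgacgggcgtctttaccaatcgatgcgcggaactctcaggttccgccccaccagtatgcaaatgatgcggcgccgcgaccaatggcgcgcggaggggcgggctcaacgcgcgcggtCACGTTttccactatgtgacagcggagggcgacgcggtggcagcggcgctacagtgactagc
Bhlhe40 (chr4:143174200-143174449, plus strand): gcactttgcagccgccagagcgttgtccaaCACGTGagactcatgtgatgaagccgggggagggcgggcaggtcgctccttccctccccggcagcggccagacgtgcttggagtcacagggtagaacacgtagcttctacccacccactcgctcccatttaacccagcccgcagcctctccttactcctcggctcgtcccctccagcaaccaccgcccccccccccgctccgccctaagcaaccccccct
Ciart (chr2:186112247-186112496, minus strand): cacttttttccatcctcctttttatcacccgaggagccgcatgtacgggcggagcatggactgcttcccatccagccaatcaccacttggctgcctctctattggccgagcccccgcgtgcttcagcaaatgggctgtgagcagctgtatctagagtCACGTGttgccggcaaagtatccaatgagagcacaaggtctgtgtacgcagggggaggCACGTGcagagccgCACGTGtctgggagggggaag

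Per2 held an E′-box starting 62 bases and a D-box starting 192 bases before its start site. Bhlhe40 held an E-box 220 bases before it, Cry2 an E′-box on the opposite strand 212 bases before it, and Arntl the element TAGGTCA 16 bases before it. Thus 1 of 9 genes had the E-box, against 6.42% of 33465 RefSeq windows of the same length. The E′-box was in 2 of 9 (4.83% of all windows), the D-box in 1 of 9 (0.893%) and TAGGTCA in 1 of 9 (2.63%). The palindromic D-box (0.12%) and the cyclic AMP element (1.83%) were in 0 of 9. A match is a string of letters, not a shown binding site, and these genes can have motifs outside the window.

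In INS-SMA, 7 of the 10 clock genes were higher (edgeR, quasi-likelihood F-test, adjusted p under 0.05). These were Per2, Per3, Cry1, Cry2, Dbp, Bhlhe40 and Nfil3. None was lower, nor was any at an unadjusted p under 0.05 or in DESeq2, since all 10 estimates lay above 0. Over all 13363 tested genes, 28.1% passed as higher, 27.0% as lower and 55.1% in either direction. The median log2 fold change was 1.83 over the 10 genes and 0.03 over all tested genes. In 8 of the 10 every INS-SMA library lay above every INS-MOCK library, and 33.5% of all tested genes showed this. Clock and Arntl were the exceptions. No p-value was computed for the set as such. In bulk RNA, more cells with a transcript and more of it per cell cannot be told apart.

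**Figure D1:**
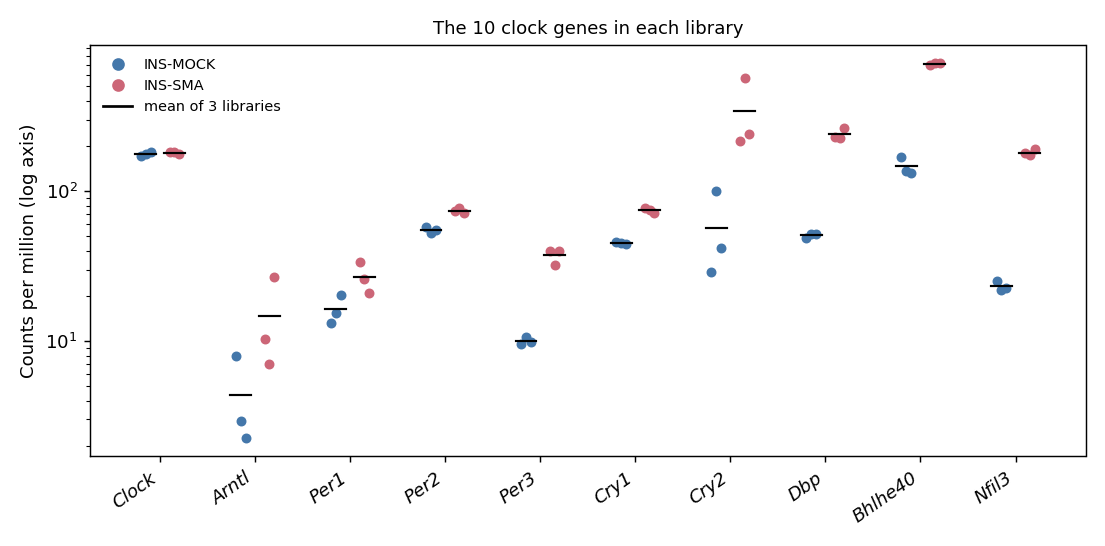
CPM (read counts scaled to library size, log axis) of the 10 clock genes in each of the 6 libraries, with the mean of each group as a bar. Clock is level at 171.8 to 183.8 CPM in all libraries, Arntl and Cry2 are spread within both groups, and Dbp, Bhlhe40 and Nfil3 form separate, tight groups.

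Clock, which encodes the partner of BMAL1 in the activating complex (chromosome 14, 34446616 to 34502218 in the coordinates of the deposited table), was nearly level. It stood at 171.8, 178.4 and 181.6 CPM (read counts scaled to a common, normalised library size) in INS-MOCK and at 183.8, 181.8 and 177.2 CPM in INS-SMA. The groups overlapped, and Clock was among the least variable genes, since 2.34% of tested genes had a smaller spread between replicates. Its log2 fold change was 0.03 (SE 0.04, adjusted p = 0.527 in edgeR), with a 95% interval of -0.06 to 0.12. The sign was negative (-0.016) when rows without a gene name entered the library sizes. Without normalisation factors Clock passed at 0.12 (adjusted p = 0.0451, the lowest of a range up to 0.97), a setting in which the median of all tested genes was itself 0.126.

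Arntl encodes BMAL1 (chromosome 1, 178039063 to 178137465) and was counted in a single row. It had 191, 65 and 53 counts in INS-MOCK and 173, 152 and 687 in INS-SMA, or 7.89, 2.91 and 2.27 CPM against 10.4, 6.97 and 26.7 CPM. INS-SMA replicate 3 was the highest library, and INS-SMA replicate 2 lay below INS-MOCK replicate 1. The log2 fold change was 1.75 (SE 0.72, 95% interval -0.04 to 3.55) and did not pass edgeR's test (adjusted p = 0.0891). It passed without INS-MOCK replicate 1 (2.50, adjusted p = 0.0396) and in DESeq2's Wald test (0.0123). The highest adjusted p of any alternative was 0.259, with a log2 fold change of 0.99, without INS-SMA replicate 3. Its replicates were more spread than those of 87.6% of tested genes. By Pearson correlation of log2 CPM over the 6 libraries, Fam43a (0.989), Nkx3-2 (0.978) and Bod1l1 (0.9749) had the patterns most like that of Arntl, and 92 genes exceeded 0.9. These correlations are a description over 6 libraries from both groups.

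The Per genes encode the PERIOD repressors, and Per3 had the largest log2 fold change of the 3. Per3 (chromosome 5, 168086998 to 168123395) was at 9.50, 10.7 and 9.79 CPM in INS-MOCK and at 40.1, 32.2 and 40.0 CPM in INS-SMA. The lowest INS-SMA library was well above the highest INS-MOCK library. Its log2 fold change was 1.90 (SE 0.13, adjusted p = 9.31e-05 in edgeR), and its call held in all 18 alternatives (1.85 to 2.08).

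Per2 (chromosome 9, 98555169 to 98597359) rose less, from 58.0, 52.8 and 54.8 to 73.6, 76.9 and 71.2 CPM. The groups were apart, with a log2 fold change of 0.42 with an SE of 0.06 (adjusted p = 0.00186 in edgeR). The call rests on the sum of its 4 rows: its most abundant row alone gave 0.30 (adjusted p = 0.445), and the test of single rows gave 0.22 (adjusted p = 0.634). Per1 (chromosome 10, 55687050 to 55695994), an early-responding member that cyclic AMP signals induce, stood at 13.3, 15.4 and 20.4 CPM in INS-MOCK and at 33.9, 25.9 and 21.0 CPM in INS-SMA. The groups nearly touched, at 20.4 and 21.0 CPM. Its log2 fold change of 0.72 (SE 0.24, 95% interval 0.11 to 1.33) missed the threshold in edgeR's test (adjusted p = 0.0507). It passed without INS-MOCK replicate 3 (0.0405), without INS-SMA replicate 3 (0.0375) and in 4 other alternatives. Over the 18 alternatives its adjusted p lay between 0.00634 and 0.143.

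The Cry genes encode the cryptochromes, which repress CLOCK and BMAL1 together with PER. Cry1 (chromosome 7, 24534615 to 24634097) was at 45.5, 45.4 and 44.5 CPM in INS-MOCK and at 77.7, 75.2 and 71.8 CPM in INS-SMA. Replicates were close, and the log2 fold change was 0.73 (SE 0.05, adjusted p = 1.14e-04 in edgeR). Both of its rows also passed when tested singly. Cry2 (chromosome 3, 81314149 to 81344110) was counted in a single row with 697, 2240 and 979 counts in INS-MOCK and 3621, 12345 and 6153 in INS-SMA, or 28.8, 100.4 and 41.8 against 217.6, 566.4 and 239.3 CPM. Replicate 2 was the highest library in both groups, and the groups did not overlap. The log2 fold change was 2.58 (SE 0.64, 95% interval 0.99 to 4.17, adjusted p = 0.017 in edgeR). The call was lost without INS-MOCK replicate 3 (adjusted p = 0.0612, the highest of a range that began at 2.70e-04). Leaving out INS-SMA replicate 2 gave a log2 fold change of 2.00, and leaving out INS-MOCK replicate 2 gave 3.27.

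Dbp and Nfil3 encode the D-box activator and repressor, and both were several-fold higher in INS-SMA. Dbp (chromosome 1, 101687855 to 101692846) was at 48.6, 51.7 and 51.9 CPM in INS-MOCK and at 228.8, 226.5 and 263.4 CPM in INS-SMA, a log2 fold change of 2.24 with an SE of 0.07 (adjusted p = 1.15e-05 in edgeR). Nfil3 (chromosome 17, 12261102 to 12276315) was at 25.2, 22.1 and 22.7 CPM in INS-MOCK and at 178.9, 174.4 and 190.1 CPM in INS-SMA. Its log2 fold change was 2.96 (SE 0.07, adjusted p = 5.04e-06), and both calls held in all 18 alternatives. By the most abundant row alone the log2 fold change was 3.07 for Dbp and 1.90 for Nfil3. The ratio of Dbp to Nfil3 CPM, which is not corrected for length, was 1.93, 2.34 and 2.28 in INS-MOCK and 1.28, 1.30 and 1.39 in INS-SMA. Its direction turned with the most abundant row of each gene, a setting added for the ratios after the values were seen: 0.471, 0.49 and 0.38 in INS-MOCK against 0.634, 0.987 and 1.46 in INS-SMA.

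Bhlhe40 encodes DEC1, a repressor that competes for E-boxes and also responds to hypoxia and other signals (chromosome 4, 140703619 to 140709319). It was at 169.8, 137.3 and 132.9 CPM in INS-MOCK and at 691.9, 712.9 and 713.3 CPM in INS-SMA. All INS-SMA libraries were far above INS-MOCK, and the log2 fold change was 2.27 (SE 0.10, adjusted p = 2.65e-05 in edgeR), with a range of 2.20 to 2.39 over the 18 alternatives.

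**Figure D2:**
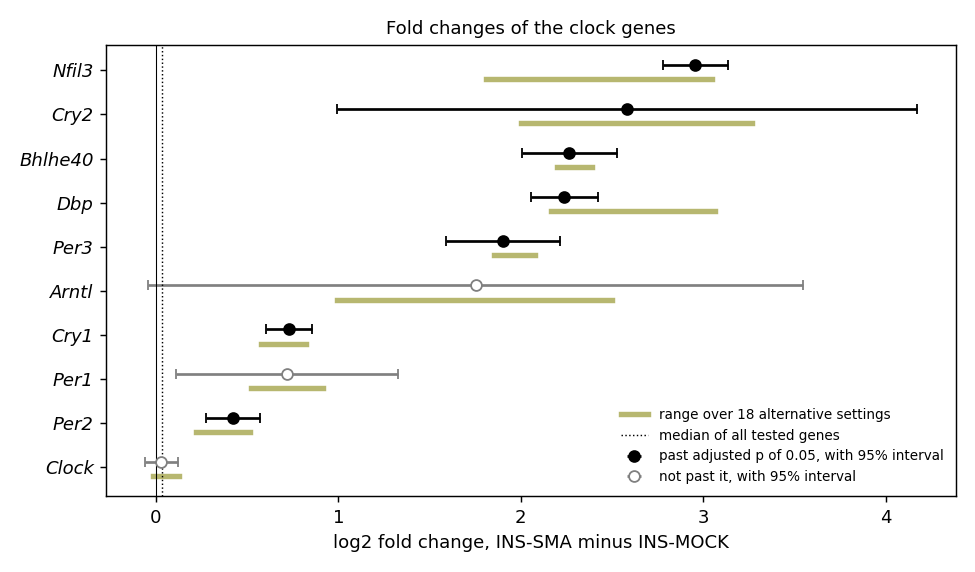
Log2 fold changes (INS-SMA minus INS-MOCK) of the 10 clock genes, as points with 95% intervals, filled where the adjusted p was below 0.05. The bars beneath give the range over 18 alternative settings, and only the bar of Clock reaches 0. The 95% intervals of Clock and Arntl include 0.

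Ratios between partner genes were compared within libraries for 6 pairs, with an exact two-sided permutation test on log2 ratios whose smallest possible p for 3 against 3 is 0.1. From gene sums, the Dbp to Nfil3 ratio was lower and the Per3 to Per2 (mean 0.18 against 0.51), Cry2 to Cry1 (1.26 against 4.56) and Per1 to Clock ratios (0.09 against 0.15) were higher in every INS-SMA library than in every INS-MOCK library (exact permutation p = 0.1 each, adjusted p = 0.15 over the 6 pairs). The Arntl to Clock and Per1 to Per2 ratios overlapped between groups (exact permutation p = 0.2 and 0.4). No ratio can reach 0.05 in this design. By the most abundant rows the Dbp to Nfil3 ratio was higher in every INS-SMA library, and the other 5 ratios kept their direction.

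Other genes of the clock were taken as 4 lists of 47 genes in all, 44 of them found by name in the table and 40 tested. Over these lists 20 of 40 genes were higher and 7 lower, with a median log2 fold change of 0.56. Over all tested genes 28.1% were higher and 27.0% lower, with a median of 0.03. Among 11 paralogues and feedback-loop factors, 7 were tested, 5 were higher and 0 lower, with a median of 2.06. Those 5 were Nr1d1, Nr1d2, Ciart, Bhlhe41 and Hlf. The ROR gene Rorb was tested and stood at 5.83 ± 1.29 against 6.48 ± 0.0907 CPM (SD, n = 3), with overlapping groups.

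Nr1d1 encodes REV-ERBα, a repressor of Arntl. It was at 9.04, 19.8 and 15.8 CPM in INS-MOCK and at 561.6, 525.7 and 468.7 CPM in INS-SMA, a log2 fold change of 5.13 with an SE of 0.33 (adjusted p = 8.64e-05 in edgeR). The groups were more than an order of magnitude apart. Its gene overlaps Thra on the opposite strand by 1059 bases, and the strand setting of the counting is not known, so reads there cannot be told apart. Thra itself went from 45.5 ± 2.74 to 60.7 ± 2.55 CPM (SD, n = 3). The RefSeq windows of Nr1d1, 1 for each of its start sites, held an E′-box starting 174 bases before the first and an E-box starting 191 bases before the other.

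Ciart encodes CHRONO, a repressor of the CLOCK and BMAL1 complex. It was at 4.79, 4.39 and 5.98 CPM in INS-MOCK and at 140.3, 131.1 and 141.5 CPM in INS-SMA, a log2 fold change of 4.77 with an SE of 0.14 (adjusted p = 8.51e-06 in edgeR). Its window printed above held the E-box 3 times, starting 93, 35 and 21 bases before the start site. Bhlhe41 (DEC2, the paralogue of DEC1) went from 4.07 ± 0.97 to 39.1 ± 2.58 CPM (SD, n = 3), a log2 fold change of 3.27, and had an E-box starting 48 bases before its start site. Of the 5 related genes with a RefSeq window, 4 held the E-box: Nr1d1, Ciart, Bhlhe41 and Tef. Over all 33465 RefSeq windows the share was 6.42%. That share is counted per window, whereas Nr1d1 is counted here through only 1 of its windows. These genes were picked as related feedback-loop genes, and no enrichment was tested. Tef did not pass the test and had the E-box 198 bases before its start site. The window of Nr1d2 held none of the motifs. Nr1d2 (REV-ERBβ) was at 108.4, 116.2 and 111.5 CPM in INS-MOCK and at 444.4, 442.3 and 468.4 CPM in INS-SMA, a log2 fold change of 2.01 with an SE of 0.04 (adjusted p = 4.39e-06 in edgeR).

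The relatives of Dbp did not share 1 pattern. Hlf, a D-box activator, was low but higher in INS-SMA, with 0.867, 1.75 and 2.48 against 8.83, 6.29 and 6.18 CPM (log2 fold change 2.06, adjusted p = 0.00906 in edgeR). Tef, the other D-box activator, was at 75.9, 5.87 and 7.22 CPM in INS-MOCK and at 6.91, 5.96 and 9.49 CPM in INS-SMA. INS-MOCK replicate 1 stood apart by itself, and 1 row held 99.1% of its Tef counts (1823 counts, against 19 and 69 in the other INS-MOCK libraries). The log2 fold change was -1.99 (adjusted p = 0.176 in edgeR) and 0.19 without that library. Npas2, a paralogue of Clock, had 5, 0 and 0 counts in INS-MOCK and 0, 3 and 0 in INS-SMA and was not tested. Rora was also below the count filter.

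**Figure D3:**
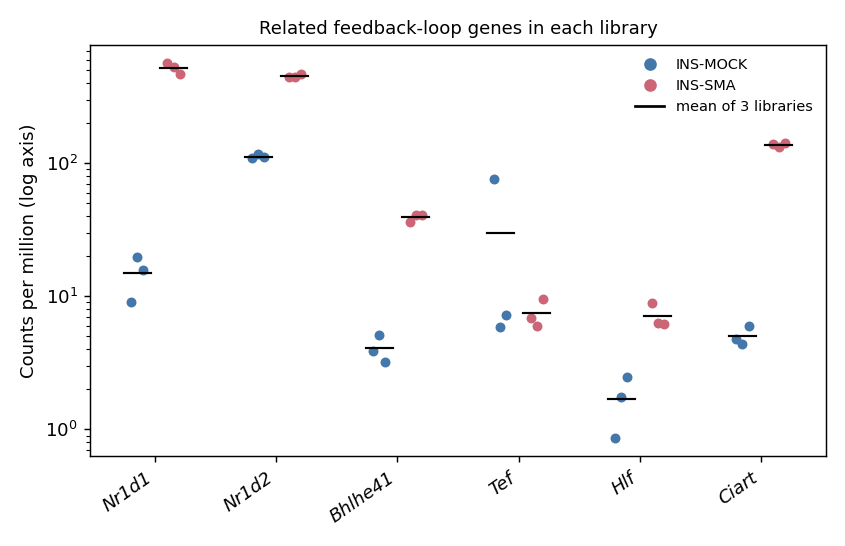
CPM (log axis) of 6 related feedback-loop genes in each library, with group means as bars. Nr1d1, Nr1d2, Bhlhe41, Hlf and Ciart are higher in all 3 INS-SMA libraries, whereas the mean of Tef in INS-MOCK is set by 1 library at 75.9 CPM.

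Of 14 tested regulators of PER and CRY stability, 5 were higher and 3 lower, near the 28.1% and 27.0% of all tested genes, with a median log2 fold change of 0.26. Csnk1d, which encodes the PER kinase CK1δ, went from 29.2 ± 5.44 to 79.1 ± 17.4 CPM (SD, n = 3; log2 fold change 1.44, adjusted p = 0.00246 in edgeR). Btrc, a ubiquitin ligase subunit that recognises phosphorylated PER, rose by 0.69 on the log2 scale, and Prkaa1, a catalytic subunit of the energy sensor AMPK that phosphorylates CRY, rose by 0.64. Csnk2b (log2 fold change -0.51), a casein kinase 2 subunit, Fbxl21 (-0.43), a ligase subunit for CRY, and Timeless (-1.30), which acts mainly at replication forks in mammals, were lower. The gene Csnk2b overlaps Ly6g5b on the same strand by 1010 bases, so reads there cannot be told apart. Fbxl21 did not pass by its most abundant row (adjusted p = 0.276), nor Timeless when its rows were tested singly (0.0525). Csnk1a1 (1.02, adjusted p = 0.0339) and Prkaa2 (0.50, adjusted p = 0.0471) were near the threshold. Csnk1a1 held its call without INS-MOCK replicate 1 and lost it when any of the other 5 libraries was left out (adjusted p 0.059 to 0.104). It lost its call in 7 of 18 alternatives in all. Prkaa2 held its call without INS-SMA replicate 3 (0.0458), lost it when any of the other 5 was left out (0.056 to 0.13), and lost it in 12 of 18 alternatives in all. With the replicate number as a block the adjusted p was 0.074 for Csnk1a1 and 0.0819 for Prkaa2.

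Among genes of clock output and of clock-associated chromatin factors, 9 of 12 were tested, and 6 were higher and 2 lower, beside 28.1% and 27.0% of all tested genes, with a median log2 fold change of 0.93. Klf10, a transcription factor gene that the clock and TGF-beta both act on, went from 281.2 ± 8.62 to 2411 ± 44.3 CPM (SD, n = 3; log2 fold change 3.10, adjusted p = 2.01e-06 in edgeR). Klf9, a glucocorticoid-responsive factor, rose by 1.46 on the log2 scale. Wee1, a kinase that restrains entry into mitosis, rose by 0.93, and Noct (nocturnin) by 0.91. The adjusted p of Wee1 was 0.066 with rows tested singly. The histone demethylase gene Kdm5a rose by 1.34 and Wdr5, a subunit of histone methyltransferase complexes, by 0.48. Hdac3 (-0.73), the deacetylase that REV-ERB repression depends on, and Nono (-0.40), a PER-associated RNA-binding protein, were lower. Nampt, the rate-limiting enzyme of NAD salvage, was at 72.9, 69.5 and 57.9 CPM in INS-MOCK and at 242.4, 248.1 and 10.2 CPM in INS-SMA. INS-SMA replicate 3 lay below every other library, and Nampt did not pass (log2 fold change 1.32, adjusted p = 0.327 in edgeR). Without that library it was 1.88 (adjusted p = 3.54e-04).

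The list of genes through which cyclic AMP and calcium reset the clock had 4 higher and 2 lower of 10 tested (median 0.43), near the 28.1% and 27.0% of all tested genes. Crem, which encodes activators and the cyclic AMP-inducible repressor ICER, was at 23.1, 25.7 and 21.7 CPM in INS-MOCK and at 7.21, 5.46 and 6.92 CPM in INS-SMA. All INS-SMA libraries lay lower, a log2 fold change of -1.85 with an SE of 0.16 (adjusted p = 2.38e-04 in edgeR). Sik1, a kinase that holds back the CREB coactivators, was also lower (-0.60). Nr4a1 (1.21) and the coactivator genes Crtc1 (0.56) and Crtc2 (0.30) were higher. Crtc2 did not pass by its most abundant row (adjusted p = 0.179). Creb1 passed at 0.60 (edgeR, adjusted p = 0.0339). It missed the threshold without INS-MOCK replicates 1 or 2 or INS-SMA replicates 1 or 3 (0.0802 to 0.0935), and with the replicate number as a block (0.072). Creb1 also missed it with no low-count filter (0.057) and with rows tested singly (0.13), and so in 7 of 18 alternatives in all. Id2, an inhibitor of helix-loop-helix factors, had 41, 38 and 775 counts in INS-MOCK and 1174, 1743 and 1529 in INS-SMA. It did not pass (log2 fold change 2.52, adjusted p = 0.147 in edgeR), but did without INS-MOCK replicate 3 (5.36, adjusted p = 1.24e-04).

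Several of these genes were counted in more than 1 row, and the rows show where the sums came from. Rows named by a gene identifier with a suffix carry no annotated transcript name. For Dbp, 5 of 6 rows were higher when 23402 rows were tested singly and 0 were lower. Of all these rows 15.6% were higher and 14.6% lower. Its rows did not rise alike: an annotated row (ENSRNOT00000091597) had 100, 169 and 80 counts in INS-MOCK and 1215, 935 and 1551 in INS-SMA, a log2 fold change of 3.52 (adjusted p = 0.00282 in edgeR). The third row had 410, 473 and 570 against 737, 717 and 950 counts (0.84, adjusted p = 0.0276). That row held 34.8% to 47.0% of the Dbp counts in INS-MOCK libraries and 14.0% to 19.4% in INS-SMA libraries.

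For Nfil3 the annotated row (ENSRNOT00000015525) had 601, 243 and 524 counts in INS-MOCK and 1471, 1150 and 1711 in INS-SMA, a log2 fold change of 1.81 (adjusted p = 0.0195 in edgeR), below the 2.96 of the gene sum. Another row had 0 counts in all INS-MOCK libraries and 724, 1398 and 1453 in INS-SMA. Against a floor of 3 counts per library this was 425-fold higher, but the floor covers counting error only. It does not cover reads that were assigned to other Nfil3 rows. A further row held 8, 247 and 8 counts in INS-MOCK. In INS-MOCK replicate 2, where the annotated row was low and this row high, the Nfil3 sum was 22.1 CPM, close to the other INS-MOCK libraries.

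Per2 rows also varied within INS-SMA more than their sum did. The second row had 18 counts in INS-SMA replicate 1 and 821 and 778 in the other INS-SMA libraries, while the sums stayed between 71.2 and 76.9 CPM. None of the 4 Per2 rows or 5 Clock rows passed when tested singly.

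Nr1d2 had rows that moved in opposite directions. The annotated row ENSRNOT00000081845 had 394, 418 and 508 counts in INS-MOCK and 4409, 6140 and 7071 in INS-SMA, a log2 fold change of 3.83 (adjusted p = 9.85e-05 in edgeR). A row without a transcript name had 1577, 2076 and 1971 counts in INS-MOCK and 293, 373 and 339 in INS-SMA, a log2 fold change of -2.36 (adjusted p = 9.73e-04). The first of these held 15.0% to 19.5% of Nr1d2 counts in INS-MOCK libraries and 58.7% to 63.7% in INS-SMA libraries. Deposited row counts depend on how reads were divided among overlapping models, and this step is not described in the sources used here.

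**Figure D4:**
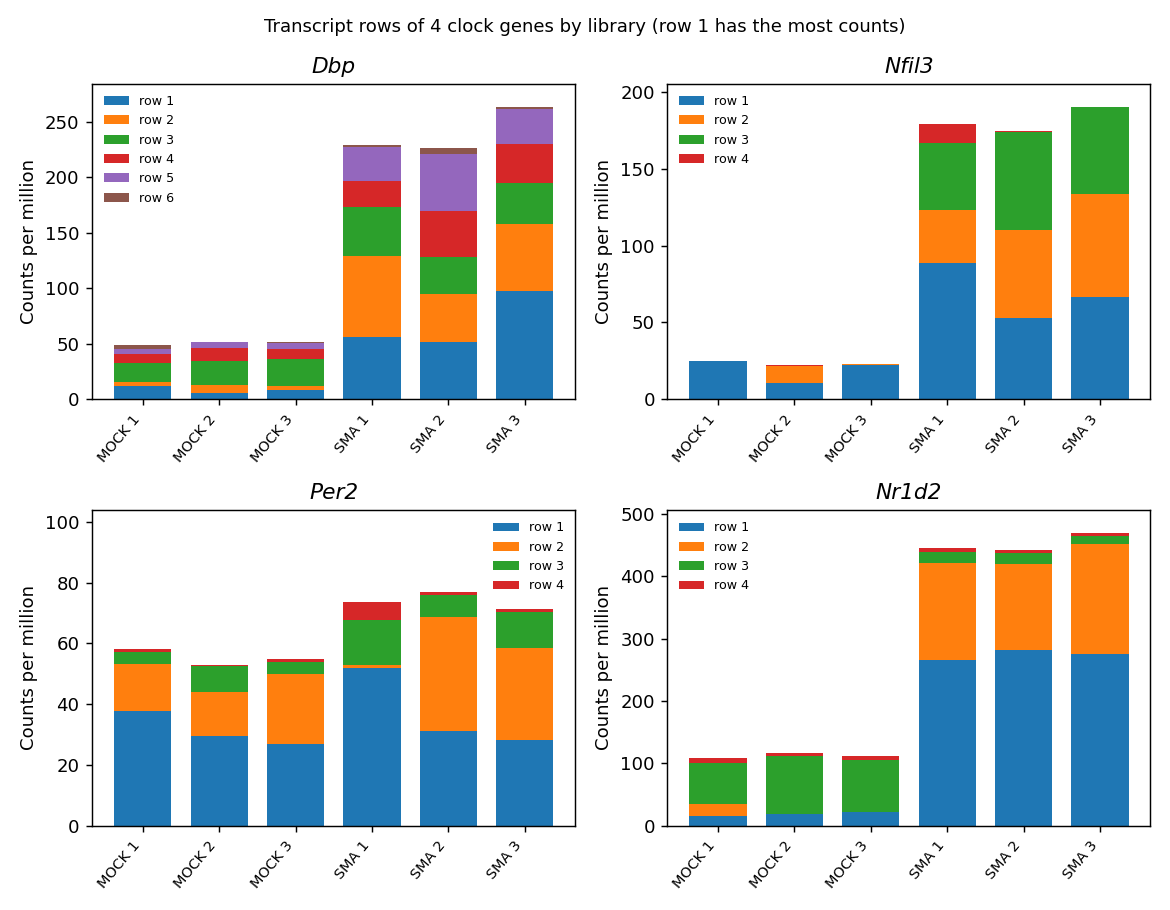
CPM of each transcript row of Dbp, Nfil3, Per2 and Nr1d2, stacked by library (3 INS-MOCK, then 3 INS-SMA; the top of a bar is the gene sum). The sums are even within each group although the rows are not, and the third row of Nr1d2 shrinks while its first grows.

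Total counts per library ran from 24719503 to 39608609. Rows that name no gene took 32.7% to 33.0% of counts in INS-MOCK and 35.8% to 36.7% in INS-SMA, so reads of these genes may be missing from their values, and the part of this difference in the clock gene values was not tested. Beta cell markers (9 of 10 found by name) summed to 32154 to 34957 CPM in INS-MOCK and 3063 to 4105 CPM in INS-SMA, 6 lower and 0 higher, and Ins1, Ins2 and Pdx1 were counted in every library. Other islet endocrine markers (3 of 7) summed to 692.1 to 749.0 and 24.4 to 30.2 CPM, nearly all Gcg. Fibroblast, stellate and smooth muscle markers (11 of 12) summed to 17.0 to 21.6 and 17.8 to 18.2 CPM, with 2 higher and 1 lower. The sum hid opposite changes. Pdgfra, its largest part, fell from a mean of 15.3 to 8.24 CPM. Col3a1 had 3, 0 and 2 counts in INS-MOCK and 46, 80 and 54 in INS-SMA (adjusted p = 0.00224 in edgeR). Myh11 had 28, 47 and 21 against 46, 73 and 91 counts (adjusted p = 0.0379). Immune and endothelial markers (6 of 10) summed to 2.56 to 4.89 and 3.81 to 4.04 CPM, with 1 higher. Acinar and duct markers (4 of 8) summed to 16.3 to 27.6 and 17.1 to 18.7 CPM, with 1 higher and 2 lower. Col1a2, Dcn, Lum, Ptprc, Cdh5, Prss1 and Cftr were at 0 in all INS-MOCK libraries, and Cnn1 in all INS-SMA libraries. In INS-SMA, Cftr had 143, 202 and 182 counts and Ptprc 31, 34 and 29 (adjusted p = 2.51e-04 and 0.00148 in edgeR). The others of the genes at 0 in INS-MOCK had at most 12 counts in any INS-SMA library. Krt7 (log2 fold change -0.75) and Sox9 (-1.40) were the 2 lower acinar and duct markers. The part of the beta cell marker difference in the clock gene values was not tested.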

How the data were processed

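The data are RNA-seq libraries of INS-1 cells, 3 per group, which the series calls biological replicates. The authors deposited raw counts per transcript row, 101905 rows with 1 column per library. HISAT2, HISAT and DESeq2 and the builds hg19 and rn6 appear in the submitters' processing notes without roles. Which program counted the reads, with which annotation and strand setting, is not given in the sources used here. Gene positions come from the deposited table, for which rn6 is the rat build among those notes, and promoter positions are from GRCr8.

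The 66301 rows naming no gene, 32.7% to 36.7% of counts per library, entered neither library sizes nor tests. Counts were summed per gene, filtered with filterByExpr (13363 genes kept), normalised with TMM and compared with edgeR 4.0.16 (quasi-likelihood F-test, group as the only term, R 4.3.3). P-values were adjusted by Benjamini-Hochberg over all tested genes, at a threshold of 0.05. An SE is the log2 fold change divided by the square root of F, and 95% intervals use it. CPM use TMM-scaled library sizes; 3 counts correspond to 0.117 to 0.18 CPM, and this floor covers counting error only. The script was run on simulated data in which 200 genes were changed, against 7359 genes called in these data. That run does not cover a difference this wide. No library repeated another (chi-square of counts between replicates 44.6 to 58.2 per degree of freedom).

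Total counts were 24719503 to 39608609 per library. The 10 genes, the 4 clock lists and the marker lists were chosen with earlier results of these data known. The rule for named genes took the 10 genes, the 4 members with the smallest adjusted p of each wider list, Nr1d1, Nr1d2, Npas2, Bhlhe41, Tef and Hlf, and the 3 genes most correlated with Arntl. Other wider genes, rows and Thra were named after their values were seen. Alternatives were other scalings, filters, gene values, library sizes, DESeq2 1.42.0, a replicate block and each library left out.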

Additional observations from a re-analysis of the deposited data

How the results depend on the processing

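Over 18 alternatives 6 to 9 of the 10 clock genes were higher and 0 lower, and leaving out 1 library gave 7 to 8 higher. Of all genes, 3458 of 13787 (without INS-SMA replicate 2) to 3672 of 13906 (without INS-MOCK replicate 1) were higher with 1 library left out. The wider lists gave 15 to 22 higher and 5 to 9 lower over all alternatives. Of the 12017 to 23402 genes or rows tested in these alternatives, 2945 to 4371 were higher and 2876 to 3929 lower. Per3, Cry1, Dbp, Bhlhe40 and Nfil3 kept their direction and call in all 18. Clock turned to -0.016 when the library sizes took in unnamed rows, and Tef was -2.49 to 0.19 when 1 library was left out (positive without INS-MOCK replicate 1) and down to -4.39 with rows tested singly. The difference in mean log2 ratio of Dbp to Nfil3 (INS-SMA minus INS-MOCK) was -0.72 with gene sums and 1.13 with the most abundant rows, a setting chosen after seeing the data. The cause was not tested. Using the most abundant row of each gene, or rows tested singly, gave 6 higher clock genes, where Per2 lost its call. In these settings 2945 of 13255 genes and 3641 of 23402 rows were higher. The DESeq2 Wald test gave 9, as did the fit without normalisation factors, in which the median of all tested genes was 0.126 against 0.03. Of 13363 tested genes, 4371 were higher in the DESeq2 test and 4146 without normalisation factors, against 3753 in the main fit. Over all tested genes, same-numbered libraries did not deviate together from their group means (correlations -0.0284, -0.013 and -0.0263). Such a correlation takes all genes together and cannot show whether same-numbered samples were prepared together. The sources used here do not say. With the replicate number as a block, 7 clock genes were higher, 17 wider genes were higher and 7 lower, and 6294 of 13363 genes passed against 7359. Of those 6294 genes, 3138 were higher and 3156 lower.

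Among low genes, Arntl rested on 53 to 191 counts and Hlf on 21 to 58 in INS-MOCK libraries. With 3 libraries per group, a single library decided the calls of Nampt and Id2.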
